A study of Mus musculus with 4 samples.

Results

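The genes described here carry the names Rnf, Usp or Ube2 and belong to the ubiquitin system, followed here in cultured mouse microglia, macrophages that live in the brain. They were chosen by symbol: Rnf or Usp followed by a digit, or Ube2. Usp18 and Ube2l6, which serve the ubiquitin-like protein Isg15, were left out. The choice was made with earlier results of these data known. In all, 173 of 24148 genes qualified, 81 Rnf, 55 Usp and 37 Ube2 genes. RNA was sequenced from primary microglia that had been detached by shaking from mixed glial cultures, without treatment (control, 2 libraries) or after 4 h with lipopolysaccharide (LPS) at 10 ng/ml (2 libraries). LPS, a bacterial cell wall molecule, activates the receptor Tlr4. The labels give no mouse strain, genotype or age for either group, nor whether the replicates were independent cultures; the p-values therefore rest on sample-to-sample spread that could be technical alone.

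Ubiquitin is a small protein that is attached to other proteins in a relay. An activating enzyme passes it to a conjugating enzyme (the Ube2 genes), a ligase (many of them RING finger proteins, the Rnf genes) chooses the substrate, and deubiquitinases (mostly the Usp genes) take it off again. Some chains send proteins to the proteasome, while chains linked through lysine 63 or end to end build the scaffolds on which Toll-like receptors activate NF-kB. A name is not a function: Usp6nl encodes a GTPase-activating protein, Ube2cbp is a ligase, and Rnf227 and Ube2d-ps are listed as non-coding in the RefSeq gene table.

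Depth was 3617176 and 4080568 counts for the control pair, with 5095630 and 4592474 for the LPS pair. Levels are CPM, counts scaled to a common library size with TMM factors, which correct for composition. Of the microglia markers, Csf1r and Tyrobp were abundant, with 1050 to 3047 counts per library, while P2ry12 and Tmem119 had 10 to 44 counts and Itgam, with 2 accessions, had 0. The microglia list summed to 1623 and 992 CPM in control and 1038 and 755 CPM in LPS, with overlapping groups, 0 of 7 tested markers called by edgeR or DESeq2 and 2 below 0 at an unadjusted p under 0.05; its part in the results was not tested. Markers of other glia went with the replicate number rather than the treatment: the oligodendrocyte list summed to 335 and 334 CPM in control and LPS replicate 1 but to 49.4 and 37.7 CPM in replicate 2, and the astrocyte list to 111 and 127 CPM against 308 and 439 CPM. The part of such cells in the results below was not tested; each group held 1 library of each kind. In bulk RNA, fewer cells of a type and less RNA per cell cannot be told apart.

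A mean of at least 10 counts over the 4 libraries was required for testing, which 112 members passed (50 Rnf, 35 Usp, 27 Ube2). The other 61 were too low, and 6 of them (Rnf144a, Rnf20, Rnf32, Usp33, Usp43 and Usp8) had no count in any library. Of these 61 genes, 32 had more than 1 accession in the table, against 6 of the 112 tested. Usp14, a deubiquitinase of the proteasome, had 2 accessions and 2, 1, 2 and 2 counts, and Usp8, which acts on endosomes, had 2 accessions and none. The levels of such genes are uncertain, because reads shared between accessions may not have been counted.

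6 ligases, 3 deubiquitinases and 1 conjugating enzyme rose with LPS and 1 ligase fell. By edgeR's quasi-likelihood test, adjusted over all 9548 genes tested and called at an adjusted p under 0.05, 10 members rose and 1 fell. That is 8.93% and 0.893% of the tested members, beside 6.55% and 1.79% of all genes tested (8.34% in either direction). Unless another setting is named, a call below is one by this test, with TMM scaling and no pairing of replicates. With scaling to total counts in place of TMM the split was 6 higher and 4 lower among members and 471 higher and 483 lower among all genes, beside 625 and 171 with TMM. The ligases Rnf24, Rnf114, Rnf31, Rnf19b, Rnf115 and Rnf139, the deubiquitinases Usp25, Usp16 and Usp12 and the conjugating enzyme Ube2f rose, and the ligase Rnf150 fell. The rises were moderate, from 2.31-fold to 5.15-fold with a median of 3.56-fold. The 625 genes called higher had a median of 5.50-fold, and 336 of them (53.8%) rose more than any member. Usp18 and Ube2l6, which were left out of the set, were among those 625 genes.

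**Figure D1:**
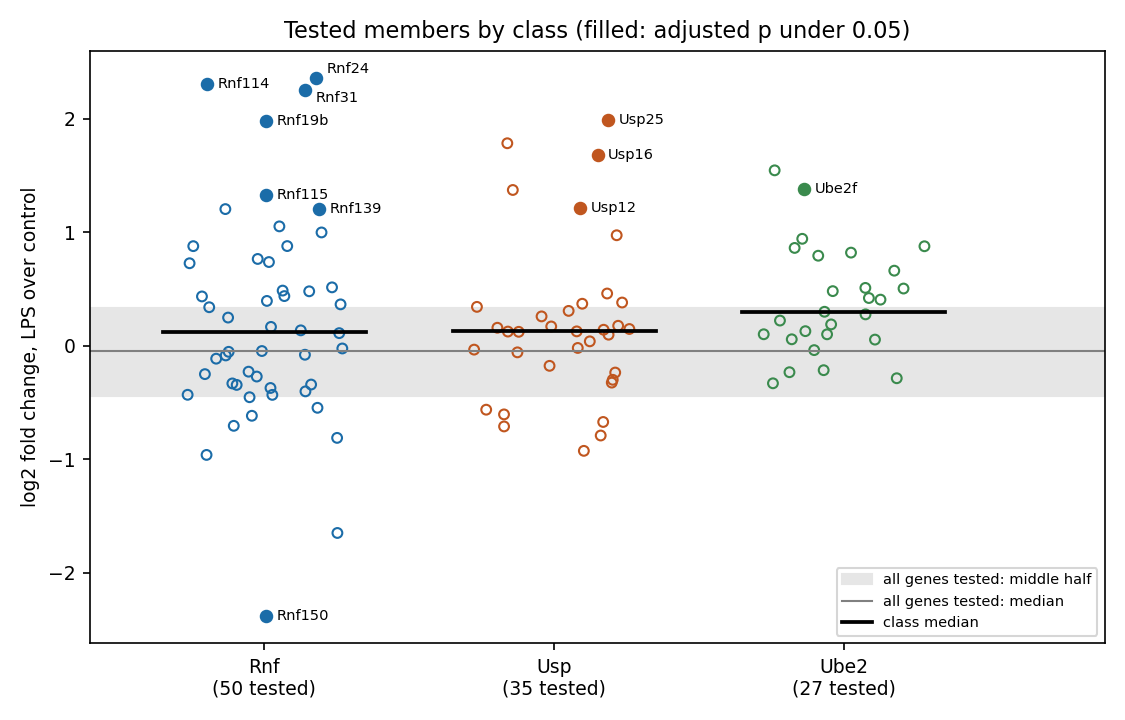
Each point is a tested gene, placed by its log2 fold change of LPS over control (vertical axis) in the Rnf, Usp or Ube2 class, with filled points for an edgeR adjusted p under 0.05. The black bars are class medians (0.12, 0.13 and 0.30), and the grey band and line give the interquartile range and median of all genes tested; most points lie in or near the band, and Rnf150 is the filled point below it.

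By class, 6 of 50 Rnf genes rose and 1 fell, 3 of 35 Usp genes rose (8.57%) and 1 of 27 Ube2 genes rose (3.7%). No Usp or Ube2 gene was called lower by edgeR with TMM scaling and no pairing of replicates, with 1 Usp and 0 Ube2 genes below 0 at an unadjusted p under 0.05 and 0 in either class called lower by DESeq2; with total-count scaling edgeR called 1 Usp gene lower. Median log2 fold changes were 0.12 for Rnf, 0.13 for Usp and 0.30 for Ube2 genes, beside -0.05 for all genes tested. With scaling to total counts the median of all genes was -0.48, and the class medians were -0.29, -0.30 and -0.11. Relative to all genes they were 0.17, 0.17 and 0.35 with TMM and 0.19, 0.17 and 0.36 with total counts. The Rnf genes spread most evenly around 0 (26 positive, 24 negative; quartiles -0.34 and 0.74), and the Ube2 genes lay mostly above it (22 of 27 positive; quartiles 0.08 and 0.73). Among the Usp genes 22 of 35 were positive, and over all members 62.5%, beside 46.4% of all genes. With total-count scaling 18 Rnf, 7 Usp and 12 Ube2 genes were positive. An absolute log2 fold change under 0.5 was found for 28 Rnf, 23 Usp and 17 Ube2 genes, 60.7% of tested members beside 59.7% of all genes. Both LPS libraries lay above both controls for 42 members (37.5%, beside 24.7% of all genes) and below them for 24 (21.4%, beside 25.8%). Whether the classes differ from one another was not tested.

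Summed over each class, the Rnf genes took 0.291% and 0.311% of counts in control and 0.339% and 0.317% in LPS. The Usp genes took 0.193% and 0.219% against 0.202% and 0.204%, and the Ube2 genes 0.235% and 0.259% against 0.267% and 0.249%. Of these shares of all counts only those of the Rnf genes did not overlap between groups. As TMM-scaled CPM the sums did not overlap in any class: 2764 and 2437 against 4120 and 3493 for Rnf, 1834 and 1716 against 2459 and 2242 for Usp, and 2239 and 2032 against 3246 and 2741 for Ube2 genes. The sum over all genes tested did not overlap on that scale either, with 942870 and 775740 against 1210900 and 1095900 CPM. Per kilobase of the longest matched transcript, the most abundant ligase in control was Rnf149, a membrane ligase of the PA-TM-RING family, at 289 CPM per kb, followed by Rnf13 of the same family at 66.1 and the cullin partner Rnf7 at 65.4. Ube2d3, which works with many RING ligases, led the conjugating enzymes at 114 CPM per kb, followed by Ube2l3, the partner of Rnf31, at 94.1. Usp7 led the deubiquitinases at 32.3 CPM per kb. On this scale Rnf31 went from 2.00 to 9.68 and Rnf114 from 24.0 to 119 CPM per kb.

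**Figure D2:**
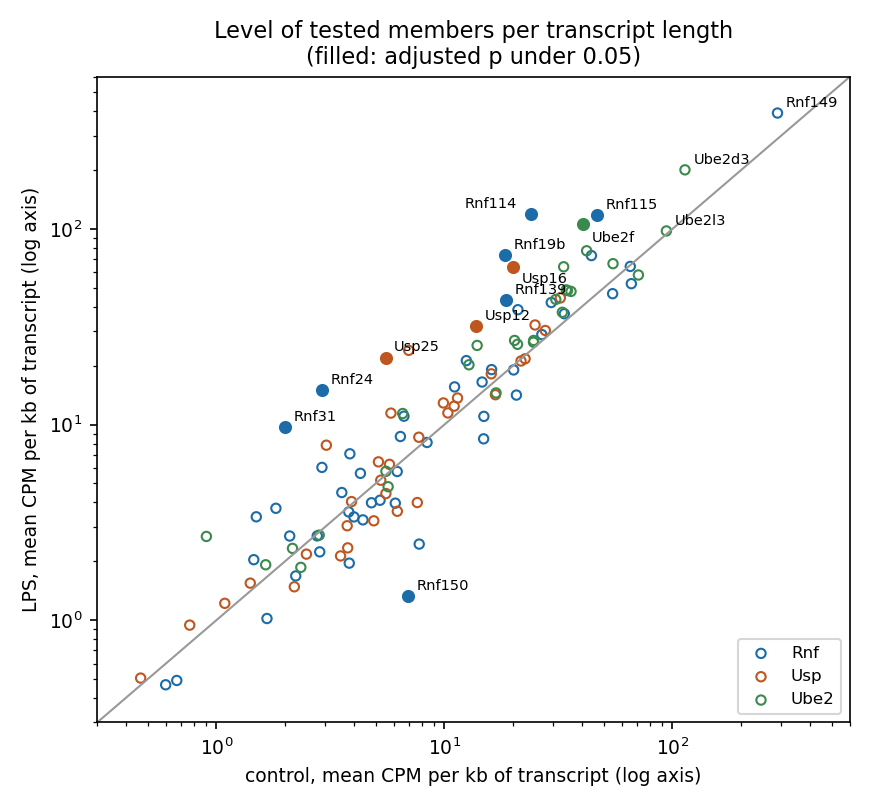
Each point is a tested member, with its mean CPM per kb of transcript in control on the horizontal axis and in LPS on the vertical axis, both logarithmic, over 2 libraries each. The line marks equal levels; Rnf149 is at the top with 289 and 392, and Rnf150 is the filled point below the line.

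The promoters of called members were searched because LPS acts through NF-kB and interferon. Whether either had a part in the changes of these genes was not tested. RefSeq (GRCm38.p6) gave 11 promoters for 9 of the 11 called genes, with none for Rnf139 and Rnf150. The 250 bases before the start were searched on both strands for a loose kappaB pattern (GGG, then any 5 bases, then CC) and a loose interferon response pattern (TTTC, any 2 bases, TTTC). The first was found in 6 of the 11 windows (54.5%), beside 45.8% of all 32851 promoter windows and 65.7% of the 108 windows of tested members. The second was found in 0 of 11, beside 2.98% of all windows and 2.78% of those of tested members. The windows of Rnf115, Usp16 and Ube2f and the upstream window of Rnf114 held no match to either pattern and are not shown. The windows of Rnf31 and Usp25 and the downstream window of Rnf114 held matches to the kappaB pattern and are not shown either. Shown are the other windows with matches, which stand in capitals, on the strand of the gene, 5′ to 3′. They belong to Rnf24, the gene with the steepest rise, Rnf19b, the gene with the smallest p, and Usp12.
Rnf24, chr2:131352893-131353142, minus strand: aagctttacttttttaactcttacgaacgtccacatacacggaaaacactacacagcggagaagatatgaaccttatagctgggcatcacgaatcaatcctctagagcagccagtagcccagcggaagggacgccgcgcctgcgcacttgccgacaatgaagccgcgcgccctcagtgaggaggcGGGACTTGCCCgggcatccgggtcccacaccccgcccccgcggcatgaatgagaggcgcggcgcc
Rnf19b, chr4:129057894-129058143, plus strand: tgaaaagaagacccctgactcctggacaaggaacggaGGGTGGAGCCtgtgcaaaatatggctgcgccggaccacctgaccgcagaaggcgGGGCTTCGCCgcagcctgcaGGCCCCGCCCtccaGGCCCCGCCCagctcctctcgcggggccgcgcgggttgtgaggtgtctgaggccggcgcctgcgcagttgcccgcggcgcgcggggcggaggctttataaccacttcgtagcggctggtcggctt
Usp12, chr5:146794957-146795206, minus strand: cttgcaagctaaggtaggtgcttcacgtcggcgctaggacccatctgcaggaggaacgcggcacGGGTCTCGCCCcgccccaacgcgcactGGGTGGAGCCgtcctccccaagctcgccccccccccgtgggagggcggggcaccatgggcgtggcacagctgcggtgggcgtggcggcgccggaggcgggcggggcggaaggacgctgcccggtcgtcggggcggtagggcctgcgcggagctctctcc
The Rnf24 window holds 2 overlapping matches on opposite strands, 65 to 55 bases before the start. Rnf19b has 4 matches, among them GGCCCCGCCC repeated, and Usp12 has 3, 2 of them overlapping. A match is a run of letters and not a site, and the pattern is common in all promoters.

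Among the ligases, the RBR family pass ubiquitin through their own cysteine. Of its 4 tested members 2 rose (50%, beside 6.55% of all genes), with a median log2 fold change of 1.52. The other 4 of the 8 listed members, each with more than 1 accession, were too low to test. Rnf31, or HOIP, is the catalytic subunit of the complex that makes linear chains for NF-kB activation. Rnf31 (chromosome 14, 55591713 to 55603674, GRCm38) had 5.26 and 8.65 CPM in control and 38.0 and 29.5 CPM in LPS. Both LPS libraries lay above both controls, a 4.78-fold rise (log2 2.26 ± 0.34 SE, adjusted p = 0.016). Its partners were not called by the same test: Sharpin had -0.18 ± 0.31 (adjusted p = 0.82), Otulin, which removes linear chains, 0.02 ± 0.21 (0.97), and Rbck1, with 2 accessions, had 2, 5, 5 and 1 counts and was not tested. Rnf19b (chromosome 4, 129058144 to 129084526), known from natural killer cells and macrophages, had 51.3 and 42.5 CPM in control and 191 and 180 CPM in LPS. The libraries of each group were close together, and the rise was 3.96-fold (1.98 ± 0.21, adjusted p = 0.0050). Rnf19a, its paralog, had 11.6 and 13.3 against 25.5 and 26.1 CPM, without overlap but without a call (1.05 ± 0.25, adjusted p = 0.069). Omitting LPS replicate 1 took Rnf31 past the threshold (2.07, adjusted p = 0.0885; range 4.55e-05 to 0.0885 over the settings that did not pair replicates).

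Rnf114 (chromosome 2, 167492645 to 167516173), a RING ligase with zinc fingers that in humans lies at a psoriasis locus, had 60.7 and 83.1 CPM in control and 393 and 322 CPM in LPS. The groups were far apart, with a 4.96-fold rise (2.31 ± 0.25, adjusted p = 0.0052). Rnf166, Rnf125 and Rnf138 are its relatives, none of them called. Rnf166 had 28.4 and 24.6 against 14.1 and 16.1 CPM, with LPS lower in both libraries and no call (-0.81 ± 0.25, adjusted p = 0.14). Rnf166 was called lower with total-count scaling. Rnf125, a ligase of the RNA sensor pathway, ranged from 1.84 to 8.16 CPM with overlapping groups (1.00 ± 0.75, 0.54), and Rnf138, with 2 accessions, had 0, 1, 1 and 0 counts. Among the Rnf genes linked to innate immune sensing, 2 of 9 tested rose (Rnf31 and Rnf114), with a median of 0.48. That is 22.2%, beside 6.55% of all genes. In the same edgeR fit 2 lay above and 2 below 0 at an unadjusted p under 0.05, and 4 of the 9 had negative values. Rnf5 (-0.08), Rnf26 (-0.11), Rnf122 (0.48) and Rnf135, also known as Riplet, (1.21 ± 0.51, adjusted p = 0.26) had no call.

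Rnf24 (chromosome 2, 131298488 to 131352892), a small membrane RING protein, had 20.2 and 14.6 CPM in control and 118 and 60.9 CPM in LPS. LPS replicate 1 was nearly double replicate 2, and both lay above the controls, a 5.15-fold rise (2.36 ± 0.40, adjusted p = 0.022). Rnf24 missed the threshold when LPS replicate 1 was omitted (1.82, adjusted p = 0.0756; range 5.95e-06 to 0.0756). Rnf122, its relative, stayed between 5.19 and 8.16 CPM in the 4 libraries (0.48 ± 0.36, adjusted p = 0.54).

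Rnf115 (chromosome 3, 96727597 to 96791155), a cytosolic ligase also called BCA2, had 102 and 105 CPM in control and 268 and 254 CPM in LPS. It had the tightest replicates of the called ligases in control and rose 2.52-fold (1.33 ± 0.18, adjusted p = 0.012). Rnf126, its relative, had 2 accessions and 0, 1, 0 and 0 counts. Rnf139 (chromosome 15, 58889229 to 58902390), a sterol-sensing ligase of the endoplasmic reticulum also called TRC8, had 73.9 and 88.8 against 177 and 199 CPM, a 2.31-fold rise (1.21 ± 0.21, adjusted p = 0.024). Its relative Rnf145 had 51.0 and 54.2 against 86.9 and 92.1 CPM, without overlap and without a call (0.77 ± 0.20, adjusted p = 0.086). Rnf139 was the 1 called gene among 6 tested ligases of the endoplasmic reticulum (16.7%, beside 6.55% of all genes), whose median was 0.20. In the same edgeR fit 2 of the 6 lay above and 0 below 0 at an unadjusted p under 0.05. Rnf115 missed the threshold on omitting LPS replicate 1 (1.30, adjusted p = 0.091), on omitting LPS replicate 2 (1.38, 0.0737) and under total-count scaling (0.90, 0.0571; range 9.47e-05 to 0.091). Rnf139 missed it on omitting control replicate 1 (1.08, 0.0547), on omitting LPS replicate 1 (1.30, 0.109), on omitting LPS replicate 2 (1.13, 0.157), in limma-trend (1.12, 0.0809) and under total-count scaling (0.77, 0.133; range 0.0015 to 0.157).

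Rnf150 (chromosome 8, 82863266 to 83091271) went the other way. It belongs to the PA-TM-RING ligases, membrane proteins with a protease-associated domain outside the RING, and had 83.1 and 51.0 CPM in control and 11.2 and 14.4 CPM in LPS. Both LPS libraries lay below both controls, a 5.21-fold fall (-2.38 ± 0.33, adjusted p = 0.013), steeper than the median fall of 3.46-fold among the 171 genes called lower. Of its relatives, Rnf149 had 854 and 588 against 1119 and 834 CPM with overlapping groups (0.44 ± 0.27, adjusted p = 0.44). Rnf128, or GRAIL, with 2 accessions, had 11.0 and 10.0 against 6.21 and 4.56 CPM (-0.96 ± 0.35, 0.19). Rnf167 (-0.55), Rnf13 (-0.33) and Rnf130 (-0.27) had negative values too. Of 6 tested members of this family 5 had a negative log2 fold change (median -0.44). Rnf150 alone was called (16.7%, beside 1.79% of all genes called lower). Both LPS libraries lay below both controls for 4 of the 6 (66.7%, beside 25.8% of all genes). Omitting either LPS library ended the call of Rnf150, at -2.21 (adjusted p = 0.0865) when replicate 1 and -2.57 (0.0543) when replicate 2 was left out (range 1.8e-06 to 0.0865). Rnf227, listed as non-coding, came next among the low genes with 8.41 and 7.5 against 2.39 and 2.64 CPM, from 10 and 11 counts in LPS (-1.65 ± 0.38, adjusted p = 0.061). It was called with total-count scaling (-2.07, 0.033; range 0.033 to 0.33).

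Ligases of chromatin and DNA repair showed no call among 7 tested (median 0.25; 1 above and 0 below 0 at an unadjusted p under 0.05; 0 by DESeq2). Rnf4, which targets proteins that carry SUMO, had 132 and 137 against 216 and 230 CPM, without overlap (0.73 ± 0.18, adjusted p = 0.079), and Rnf2, a polycomb ligase, had a value of 0.52 ± 0.21 (0.24). Rnf11, a small RING protein that works with the A20 complex, had 79.9 and 90.8 against 172 and 142 CPM (0.88 ± 0.21, adjusted p = 0.070). Rnf11 was called without a filter (0.98, adjusted p = 0.033) and by DESeq2 (0.90, 0.048; range 0.033 to 0.39).

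**Figure D3:**
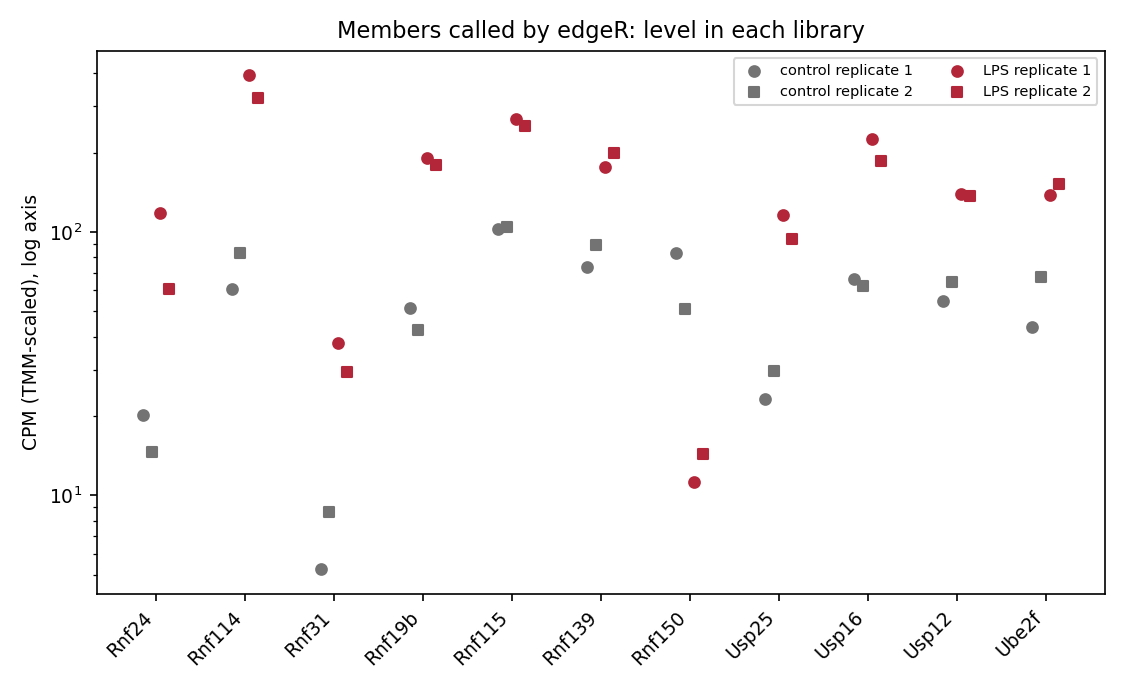
The level in each library (CPM, logarithmic axis) is shown for the 11 called members, grey for control and red for LPS, circles for replicate 1 and squares for replicate 2. The red points lie above the grey points for 10 genes and below them for Rnf150, and Rnf24 has the widest gap between LPS libraries.

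Among the deubiquitinases, Usp25 had the steepest rise. Usp25 (chromosome 16, 77013684 to 77116783), which acts on Traf proteins in Toll-like receptor and interleukin 17 signalling, had 23.1 and 29.6 CPM in control and 116 and 94.0 CPM in LPS. The groups were well apart, a 3.97-fold rise (1.99 ± 0.25, adjusted p = 0.0087). Usp28, its closest paralog and known from the DNA damage response, had 36.5 and 26.3 against 18.4 and 14.6 CPM, with LPS lower in both libraries but no call (-0.93 ± 0.29, adjusted p = 0.14). Usp28 was called lower with total-count scaling. The difference between the paralogs was not tested. Usp25 narrowly missed the threshold once LPS replicate 1 was omitted (1.84, adjusted p = 0.0531; range 6.15e-07 to 0.0531).

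Usp16 (chromosome 16, 87454985 to 87483515), which removes ubiquitin from histone H2A, had 66.2 and 62.1 CPM in control and 225 and 186 CPM in LPS, a 3.20-fold rise (1.68 ± 0.21, adjusted p = 0.0085). It was the 1 called gene among 6 tested histone deubiquitinases (16.7%, beside 6.55% of all genes), whose median was 0.23. DESeq2 called 2 of the 6 higher and 0 lower. Usp45, a relative of Usp16 with 2 accessions, had 2, 2, 0 and 0 counts. Usp16 missed the threshold once LPS replicate 1 was omitted (1.54, adjusted p = 0.0565; range 2.4e-06 to 0.0565). Usp12 (chromosome 5, 146734809 to 146794956), which needs the cofactor Uaf1, had 54.7 and 64.4 against 139 and 137 CPM, a 2.32-fold rise (1.21 ± 0.20, adjusted p = 0.023). Usp46, its paralog with the same cofactor, had 19.7 and 30.8 against 14.6 and 25.9 CPM, with overlapping groups (-0.32 ± 0.39, adjusted p = 0.72). Usp12 missed the threshold on omitting control replicate 1 (1.09, adjusted p = 0.0544), on omitting LPS replicate 1 (1.21, 0.137), on omitting LPS replicate 2 (1.23, 0.129), in limma-trend (1.13, 0.0815) and under total-count scaling (0.77, 0.122; range 0.00156 to 0.137).

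Close to the threshold stood Usp31, Usp42 and Usp21, the uncalled Usp genes with the smallest p. Usp31 had 63.1 and 55.8 against 127 and 106 CPM (0.97 ± 0.21, adjusted p = 0.054). Usp42, a deubiquitinase of p53, had 17.6 and 13.7 against 49.2 and 31.7 CPM (1.37 ± 0.32, 0.064). Usp21, which acts on histone H2A and on RNA sensor signalling, had 17.9 and 13.1 against 73.8 and 32.6 CPM, with LPS replicate 1 at more than double replicate 2 (1.79 ± 0.45, 0.079). No group overlapped in these 3 genes. DESeq2 called all of them (0.99, 1.39 and 1.8; adjusted p = 0.029, 0.020 and 0.0057), as did edgeR without a filter (adjusted p = 0.023, 0.015 and 0.0069). Usp21 was also called without control replicate 1 (2.01, 0.028), without LPS replicate 2 (2.26, 0.034) and in limma-trend (1.58, 0.038), Usp42 without control replicate 1 (1.55, 0.046), and Usp31 with a minimum mean of 50 counts (0.87, 0.049). Over the settings that did not pair replicates the adjusted p ranged from 0.023 to 0.33 for Usp31, 0.015 to 0.35 for Usp42 and 0.0057 to 0.33 for Usp21.

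Most Usp genes with a known part in NF-kB or innate signalling had no call. Of 11 tested genes Usp25 was called higher (9.09%, beside 6.55% of all genes), and the median was 0.26. In the same edgeR fit 3 lay above and 0 below 0 at an unadjusted p under 0.05. DESeq2 called 2 of them higher and 0 lower. Usp15 had a value of 0.38 ± 0.20 (adjusted p = 0.37), Usp4 0.13 ± 0.19 (0.79), Usp7 0.46 ± 0.18 (0.23), Usp48 -0.60 ± 0.32 (0.38) and Usp11 0.04 ± 0.33 (0.97). The abundant Usp9x had 1197, 1453, 1728 and 1483 counts (0.37 ± 0.19, 0.355). Usp10 followed the replicate number, with 29.4 and 8.85 CPM in control and 35.1 and 13.0 CPM in LPS (0.34 ± 0.69, adjusted p = 0.85), so its groups overlapped widely. Of 5 Usp17-like genes, near-identical copies whose reads may be shared, Usp17la was tested (13.4 and 19.6 against 8.60 and 10.6 CPM; -0.79 ± 0.33, adjusted p = 0.25).

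Among the conjugating enzymes, Ube2f alone was called without pairing of replicates and with a minimum mean of 10 counts. With replicates paired, edgeR called 12 Ube2 genes higher and 0 lower, beside 1677 and 1258 of all 9548 genes. Ube2f (chromosome 1, 91249690 to 91286521) loads the ubiquitin-like protein Nedd8 onto cullin 5 through Rnf7, and so serves cullin ligases rather than ubiquitin transfer itself. It had 43.6 and 67.3 CPM in control and 138 and 152 CPM in LPS, a 2.61-fold rise (1.39 ± 0.27, adjusted p = 0.038). Rnf7 was not called (-0.02 ± 0.22, adjusted p = 0.97), and Cul5, with 2 accessions, had 0 counts. Ube2m, the other Nedd8 enzyme, with 3 accessions, had only 5, 7, 24 and 9 counts (1.55 ± 0.63, adjusted p = 0.24). Ube2f missed the threshold on omitting control replicate 1 (1.10, adjusted p = 0.0541), on omitting LPS replicate 1 (1.46, 0.128), on omitting LPS replicate 2 (1.32, 0.165), in limma-trend (1.33, 0.0583) and under total-count scaling (0.93, 0.138; range 0.00148 to 0.165).

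The Ube2d enzymes, general partners of RING ligases, had values of 0.82 ± 0.18 (Ube2d3), 0.66 ± 0.34 (Ube2d1) and 0.28 ± 0.26 (Ube2d2a). With TMM scaling, a minimum mean of 10 counts and no pairing of replicates, edgeR called none of the 3. In that fit 1 lay above 0 at an unadjusted p under 0.05, and DESeq2 called 1. With replicates paired, edgeR called Ube2d3 and Ube2d1 higher. Ube2d3 had 433 and 437 CPM in control and 817 and 722 CPM in LPS, without overlap, and an adjusted p of 0.053. Ube2z, which takes ubiquitin from Uba6, had 153 and 114 against 275 and 238 CPM (0.94 ± 0.23, adjusted p = 0.072). Both were called by DESeq2 (adjusted p = 0.034 and 0.039) and without a filter (0.016 and 0.021), Ube2d3 with a minimum mean of 50 counts (0.72, 0.048) and Ube2z without control replicate 1 (1.16, 0.032). Their adjusted p ranged from 0.016 to 0.355 and from 0.0206 to 0.356 over the same settings. Ube2s, which extends lysine 11 chains for the anaphase-promoting complex, had 44.2 and 60.0 against 92.4 and 99.3 CPM (0.88 ± 0.24, adjusted p = 0.096). Ube2c, which starts these chains, had 12, 12, 12 and 10 counts (-0.04 ± 0.45, 0.98). Of 6 tested markers of proliferating cells Mki67 rose (2.88, adjusted p = 0.0046) and 5 had no call, 4 of them with negative values (median of the 6, -0.19), with Bub1 and Aurka at 0 in all libraries; the list summed to 38.4 and 43.8 CPM in control and 99.1 and 78.0 CPM in LPS, of which Mki67 gave 9.20 and 7.31 against 70.2 and 51.1 CPM, and its part in the values of Ube2s was not tested.

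Enzymes of lysine 63 chains, Ube2n and its inactive partner Ube2v1, had no call by DESeq2 or by edgeR without pairing of replicates (median 0.47; 0 at an unadjusted p under 0.05). Ube2n had 100 and 164 CPM in control and 171 and 207 CPM in LPS, without overlap by a small margin (0.51 ± 0.29, adjusted p = 0.41). Ube2v1 followed the replicate number, with 107 and 39.4 against 130 and 65.5 CPM (0.42 ± 0.55, 0.76). Ube2l3, the conjugating enzyme of Rnf31, had 1023, 1156, 1253 and 880 counts and a value of 0.06 ± 0.24 (adjusted p = 0.94).

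**Figure D4:**
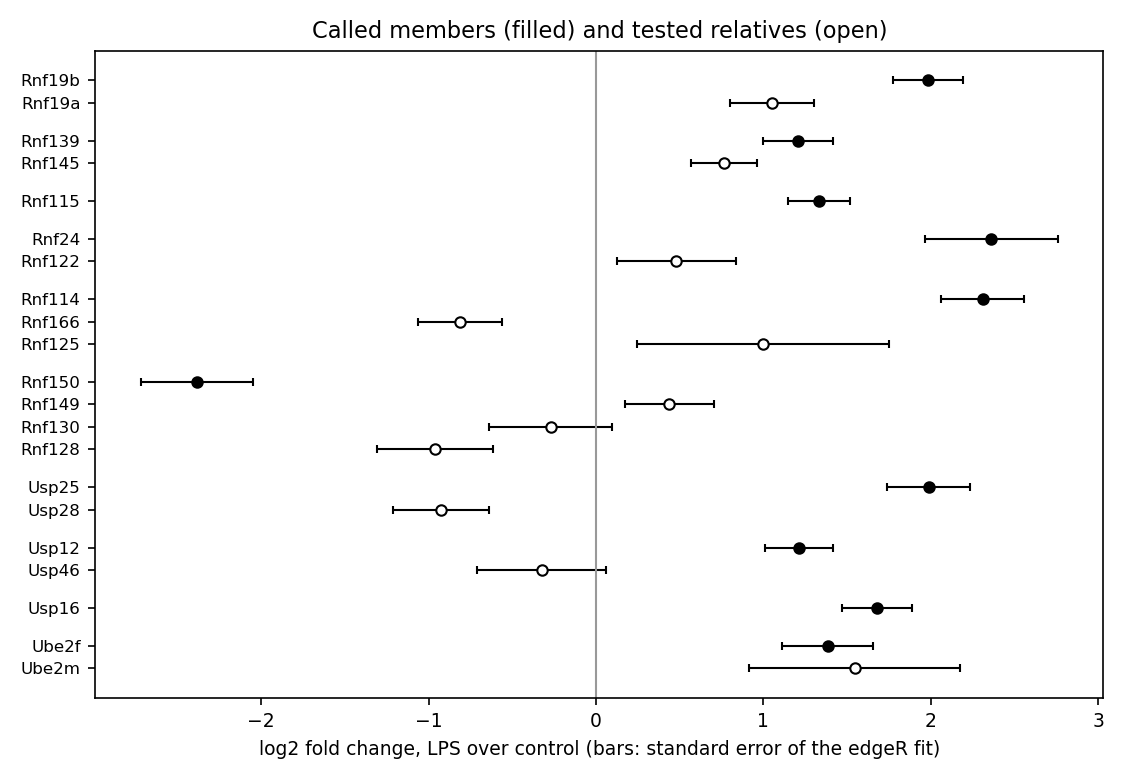
The log2 fold change of LPS over control (horizontal axis) is shown for the called members other than Rnf31 as filled points. Open points are the tested relatives picked for them, and bars are standard errors of the edgeR fit over 4 libraries. Rnf114 and Usp25 lie right of 0 at 2.31 and 1.99, with Rnf166 and Usp28 left of it at -0.81 and -0.93, while Rnf19a and Rnf145 lie on the same side as Rnf19b and Rnf139.

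The relatives were picked for the called genes after their values were seen, and no difference within a pair was tested. Side by side, Rnf19b and Rnf19a, Rnf139 and Rnf145, Rnf24 and Rnf122, Rnf114 and Rnf125, and Ube2f and Ube2m had positive values, whereas Usp25 and Usp28, Usp12 and Usp46, Rnf114 and Rnf166, and Rnf150 and Rnf149 had values of opposite sign. Rnf150, Rnf128 and Rnf130 all had negative values.

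Other genes of the pathway were taken from 7 lists, which were chosen with earlier results of these data known. The shares below therefore describe the listed genes and do not test the pathway. Of 79 tested genes 10 rose (12.7%, beside 6.55% of all genes) and 0 fell (beside 1.79%) by edgeR, with 3 below 0 at an unadjusted p under 0.05 and 0 called lower by DESeq2. The median was 0.13. Of 17 RING ligases of immune signalling 4 rose: Dtx3l, a partner of Parp9 (17.3-fold, adjusted p = 0.0011), Peli1, a ligase of Toll-like receptor signalling (11.8-fold, 0.0018), the inhibitor of apoptosis Birc3 (5.53-fold, 0.0044) and Traf5 (4.65-fold, 0.016). Of 17 HECT ligases Herc6, the mouse Isg15 ligase (35.1-fold, 0.00039), and Arel1 (4.12-fold, 0.0040) rose. Of 19 other deubiquitinases Tnfaip3, or A20 (17.1-fold, 0.010, 2 accessions), and Vcpip1 (2.86-fold, 0.015) rose. Uba7, the activating enzyme of Isg15 (8.05-fold, 0.0021), was called among 6 tested activating enzymes, and Cul2 (2.03-fold, 0.040) among 12 cullins and partners. No gene of the ubiquitin precursors (2 tested) or the other conjugating enzymes (6 tested) was called by edgeR or DESeq2, with 0 at an unadjusted p under 0.05.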

How the data were processed

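RNA sequencing of 4 libraries (2 control, 2 LPS, grouped by title) was used. The authors deposited whole-number counts for 32915 RefSeq accessions in a table named as normalized; the values were treated as counts. Per the submitters' processing notes, the build was mm10 and the tools were HTSeq 0.6.1, TopHat2 2.0.10, Trimmomatic 0.33, Cufflinks 2.2.1 and CASAVA 1.8.2. Tool roles, annotation version and strandedness of counting are not stated there, so overlapping or antisense genes may share reads. Accessions were matched to symbols with RefSeq GRCm38.p6 (32487) and GENCODE (187); 241 matched neither and held 20.1% to 24.9% of counts. Counts were summed per symbol, and 0 sample columns were left unused.

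Genes with a mean of at least 10 counts were tested by edgeR 4.0.16 (R 4.3.3; quasi-likelihood, two-sided, TMM, no covariate, Benjamini-Hochberg over 9548 genes); the standard error is the log2 fold change over the square root of F. The common biological coefficient of variation was 0.283. The test was checked on simulated data. No library was a copy of its replicate (chi-square over its degrees of freedom 26.9 for control, 22.6 for LPS). Alternatives used DESeq2 1.42.0, limma 3.58.1 (log2(count + 1), no depth correction), RLE and total-count scaling, other filters, a replicate block, single-accession genes and each library left out. Named genes were all called members, the 3 uncalled with the smallest p per class and called pathway genes; others were chosen after values were seen. One marker of the microglia list is not reported here, and its values are left out of that list. The members and lists were chosen with earlier results of these data known.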

Additional observations from a re-analysis of the deposited data

How the results depend on the processing

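Of the 10 members called higher and the 1 called lower, edgeR with RLE size factors, a minimum mean of 50, genes with 1 accession and the fit without control replicate 2 kept all 11. Total-count scaling gave 6 higher and 4 lower, with 7 of the 11 kept and Rnf166, Rnf227 and Usp28 added; DESeq2 gave 16 higher, and no filter 16, each with all 11 kept. Leaving out 1 library gave 2 to 10 higher and 0 to 1 lower: 2 and 0 without LPS replicate 1, 7 and 0 without LPS replicate 2, where fewer samples enter the fit. Rnf114 and Rnf19b were called in all 12 alternatives, and neither the 11 called members nor the 9 uncalled ones with the smallest p (3 per class) changed sign in any alternative that tested them. With the replicate number as a block the fit called 37 members higher and 10 lower, beside 1677 and 1258 of all 9548 genes. All 11 called members were among them, and so were the 9 uncalled ones with the smallest p. Ube2n and Ube2v1 were also among those added higher, and Rnf166, Usp17la, Usp28, Usp30 and Usp48 among those added lower. Deviations of same-numbered libraries correlated (0.656 across genes, which are not independent). With 2 pairs, however, the labels do not show that a number marks a shared culture.

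Median log2 fold changes with total-count scaling were -0.29 (Rnf), -0.30 (Usp) and -0.11 (Ube2). The Rnf median was 0.19 with a minimum mean of 50 and 0.056 in limma-trend, and 0.0073 to 0.17 with 1 library left out. The Usp median was 0.20 without a filter, 0.037 with a minimum mean of 50 and 0.038 in limma-trend, and 0.071 to 0.15 with 1 library left out; the Ube2 median was 0.13 to 0.42. The cause of these moves was not tested. Members under 10 counts could not be judged at this depth.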
